A study of Mus musculus with 12 samples.

Results

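The nuclear genes for the subunits of respiratory complexes III, IV and V were followed through mRNA abundance and ribosome footprints in RAW264 macrophages. They were taken by name: every listed gene whose mouse symbol begins with Uqcr, Cox4i, Cox5, Cox6a, Cox6b, Cox6c, Cox7a, Cox7b, Cox7c, Cox8 or Atp5, in old or new nomenclature, plus Cyc1. This gave 39 of the 9621 listed genes, of which 9 belong to complex III, 11 to complex IV and 19 to complex V. The complex V genes include the inhibitor Atpif1 and the pseudogene Atp5l-ps1, both reached through an Atp5 name, and Usmg5, which is also called Atp5md. Dmac2, an assembly factor of complex I with an old Atp5 alias, was left out. Other genes of these families, such as Cox4i2, Cox6a2, Cox7a1 and Cox8b, were not analysed here.

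RAW264 is an established mouse macrophage line, so the values describe 1 transformed line and not macrophages of a tissue. Cells were basal, that is without stimulation, or received lipopolysaccharide (LPS, a bacterial cell wall component) at 100 ng/ml, or LPS at that dose plus 10 µM of dexamethasone (DEX), a synthetic glucocorticoid. Both stimulated groups were harvested after 30 min, and cells of all groups met cycloheximide, which holds cytosolic ribosomes on mRNA, at 100 µg/ml before extraction. For each of the 3 treatments, poly(A) mRNA and ribosome-protected fragments (footprints) were sequenced in 2 biological replicates, which gives 12 libraries. The p-values rest on the spread between replicates, pooled over all groups of a fit and drawn toward its trend over all genes.

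Complex III passes electrons from ubiquinol to cytochrome c, complex IV passes them on to oxygen, and complex V, the ATP synthase, uses the proton gradient that they build to make ATP. Each of the 3 complexes is a mosaic: part of it is encoded in mitochondrial DNA and made on mitochondrial ribosomes. The genes selected here are nuclear, and their proteins, leaving the pseudogene aside, are made on cytosolic ribosomes and imported. In macrophages, LPS is known for shifting energy metabolism from oxidative phosphorylation toward glycolysis over hours. The factor NRF-1 (nuclear respiratory factor 1) is known for binding a GC-rich palindrome in the promoters of many of these genes.

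Promoter sequence was matched by symbol for 30 of the 39 genes in a RefSeq table of build GRCm38.p6, which spans 250 bases before and 50 after each start site. The NRF-1 letters, that is GCGC, any base, T and again GCGC, were searched on both strands. They occurred for 9 of those 30 genes (30%) and for 5.19% of the 27025 genes in the table. The exact palindrome, with A as the free base and thus contained in the first motif, occurred in 4 (13.3%, against 1.07%). The ETS letters CCGGAAGT also occurred in 4 (13.3%, against 4.31%), and the YY1 letters AAGATGGC in 3 (10%, against 3.19%). A match of letters is a description and not a measured site. The 200 bases up to the start site are shown for 4 genes with matches to the first motif in capitals. Atp5k and Atpif1 are shown because their mRNA fell after LPS, and Atp5g2 and Cox6a1 because theirs did not pass the test. Atp5k lies at chr5:108434400-108434599, Atpif1 at chr4:132535415-132535614, Atp5g2 at chr15:102671048-102671247 and Cox6a1 at chr5:115348959-115349158, all on the minus strand and written 5′ to 3′.
Atp5k: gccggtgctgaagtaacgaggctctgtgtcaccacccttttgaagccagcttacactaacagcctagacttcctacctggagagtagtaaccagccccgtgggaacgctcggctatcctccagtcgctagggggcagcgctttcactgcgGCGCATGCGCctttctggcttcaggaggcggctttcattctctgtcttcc
Atpif1: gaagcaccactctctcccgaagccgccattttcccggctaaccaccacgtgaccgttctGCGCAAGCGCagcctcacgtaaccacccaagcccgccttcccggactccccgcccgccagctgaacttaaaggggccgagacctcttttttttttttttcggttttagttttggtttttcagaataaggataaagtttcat
Atp5g2: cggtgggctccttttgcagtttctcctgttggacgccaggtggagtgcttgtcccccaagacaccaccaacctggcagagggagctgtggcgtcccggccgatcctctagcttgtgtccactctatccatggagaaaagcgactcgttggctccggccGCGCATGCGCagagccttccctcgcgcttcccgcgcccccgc
Cox6a1: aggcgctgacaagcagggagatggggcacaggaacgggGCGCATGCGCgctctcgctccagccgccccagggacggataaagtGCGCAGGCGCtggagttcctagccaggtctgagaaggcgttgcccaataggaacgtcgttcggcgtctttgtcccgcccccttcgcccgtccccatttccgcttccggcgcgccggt
Of the 9 genes with the letters, 2 were lower in mRNA after LPS and none was higher, with a median log2 change of -0.26. Of the 21 matched genes without them, 7 were lower and none was higher, with a median of -0.37. Over all genes tested, 1.68% were called lower and 9.03% higher. Whether genes with and without the letters differ was not tested.

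The libraries held 821946 to 2529666 reads, and values are read counts scaled to the depth of a library (CPM). All 39 genes passed the filter on low values in each fit. The lowest count of any of them in a library was 51 reads, at a range of 39.9 to 2337 CPM. Together they took 1.27% to 1.61% of the reads. All 12 macrophage markers examined were listed, with summed values of 5974 to 6515 CPM in mRNA libraries and 7253 to 8662 CPM in footprint libraries. Replicate 1 of the basal mRNA libraries stood apart from the rest, with Spearman correlations across genes of 0.78 to 0.83 to the other mRNA libraries. Of 20 markers of other cell types only Krt7, Col3a1 and Acta2 were listed. Their sum was 1152 and 31.9 CPM in the basal mRNA libraries, 68.0 and 89.2 CPM with LPS, and 106 and 88.6 CPM with LPS + DEX. The keratin Krt7 alone gave 1108 CPM in mRNA basal replicate 1, was listed at 0 in mRNA basal replicate 2 and reached at most 2.43 CPM in any other library. In footprints the sum was 185 and 158 CPM in basal cells, 105 and 99.8 CPM with LPS, and 195 and 184 CPM with LPS + DEX. The collagen gene Col3a1 passed in both assays: its footprints were lower with LPS than in basal cells (-1.01) and higher with DEX added (1.04), and its mRNA was higher with LPS (2.52), although that mRNA call was lost with median-of-ratios scaling. Acta2, an actin of smooth muscle, was higher in footprints with DEX added (0.64), a call also lost with that scaling. The part of these transcripts in the results was not tested, beyond leaving out basal replicate 1.

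After 30 min of LPS the mRNA of small and accessory subunits such as Atp5j, Uqcrb and Cox7b and of the inhibitor Atpif1 was lower. In the head of complex V, Atp5e was lower and Atp5a1 higher, though the Atp5a1 call was lost with median-of-ratios scaling. No gene with less mRNA passed the test for fewer footprints, which 4.32% of all genes passed. In mRNA, 12 of the 39 genes were lower and 1 was higher after LPS at an adjusted p under 0.05 (limma, Benjamini-Hochberg over 9277 genes). Over all genes tested, 1.68% were called lower and 9.03% higher. The median log2 change of the 39 genes was -0.37, against 0.26 over all genes. All changes are relative to the total reads of a library. Scaling by the median of ratios instead, which takes the median over all genes from 0.26 to 0.01 on the log2 scale, gave 18 lower, none higher and a median of -0.63. With that scaling 317 of all 9277 genes were called lower and 184 higher. The basal and LPS libraries did not overlap for 23 genes that were lower and 5 that were higher with LPS (14.2% and 46.7% of all genes). In bulk libraries such as these, fewer cells of a type and less RNA per cell cannot be told apart.

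**Figure D1:**
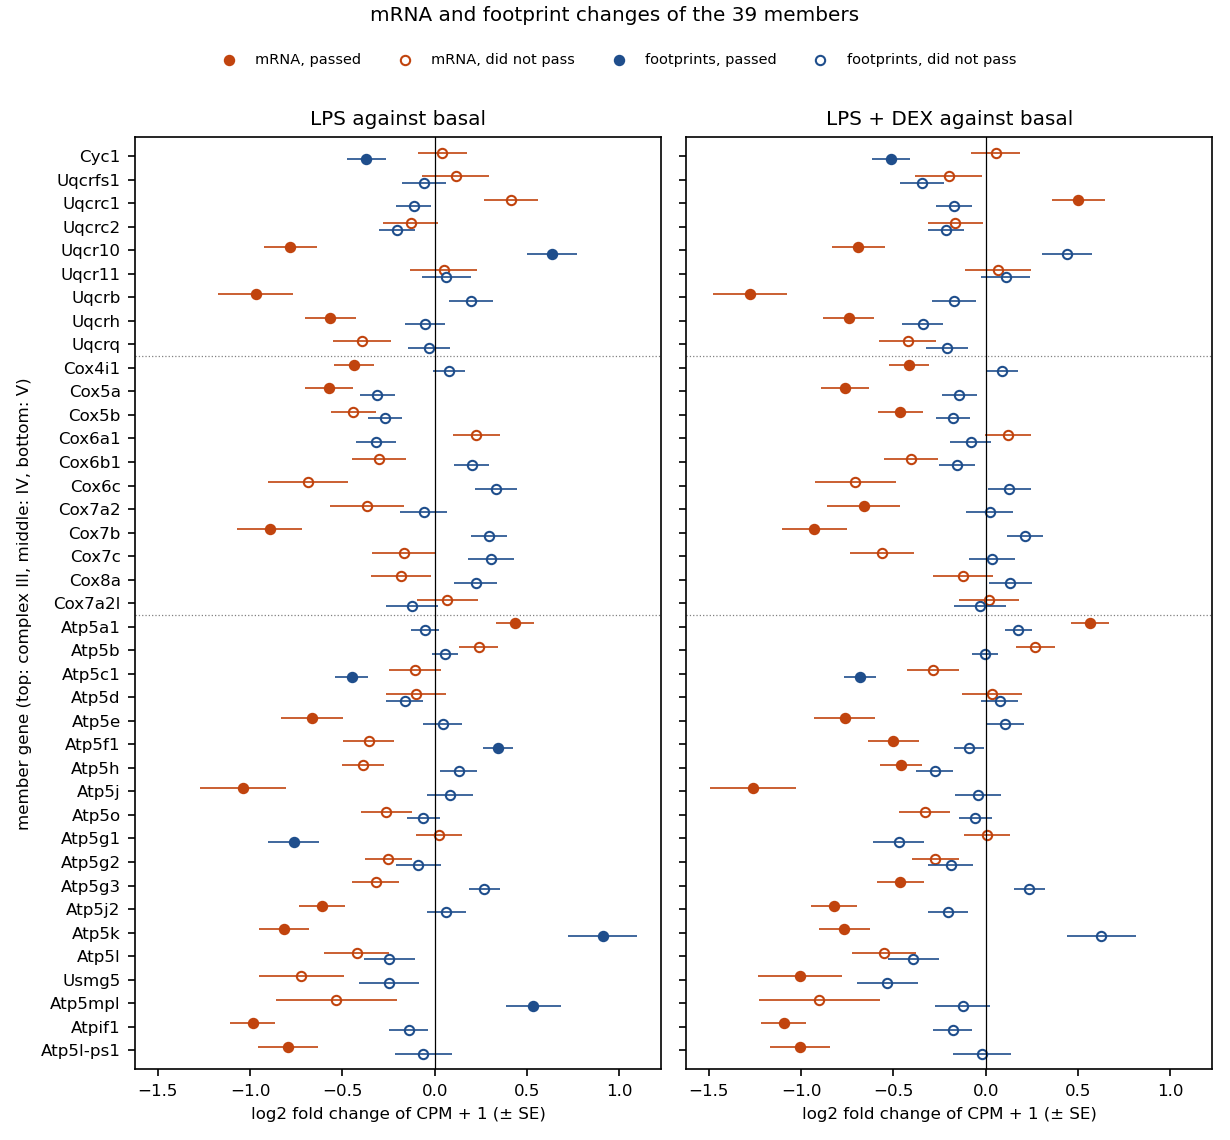
Log2 fold change of CPM + 1 against basal cells for each of the 39 genes, in mRNA (orange) and footprints (blue), with LPS (left) and LPS + DEX (right). Bars are standard errors from limma over 2 libraries a group, filled points passed an adjusted p of 0.05, and dotted lines part complexes III, IV and V. Most mRNA points lie left of 0 (30 of 39 with LPS), while footprint points gather around 0, from -0.76 to 0.91 with LPS.

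In complex III, the 3 genes that were lower in mRNA after LPS were all small subunits. Uqcrb, a ubiquinone-binding subunit, stood at 205 and 218 CPM in the basal mRNA libraries, 126 and 91.4 CPM with LPS, and 76.3 and 98.8 CPM with LPS + DEX. Both basal values lay above all 4 stimulated ones. Its mRNA fell by 0.97 ± 0.20 on the log2 scale with LPS (adjusted p = 0.0301). Uqcr10, a small membrane subunit, stood at 170 and 201 CPM in basal cells, 105 and 109 CPM with LPS, and 117 and 112 CPM with LPS + DEX, again without overlap. It fell by 0.78 ± 0.14 (adjusted p = 0.0253), and Uqcrh, the hinge protein that helps cytochrome c dock, fell by 0.57 ± 0.14 (adjusted p = 0.0425). None of the 4 core and redox subunits passed in mRNA with LPS. Among them, the core protein gene Uqcrc1 had 356 and 392 CPM in basal cells and 467 and 530 CPM with LPS, a log2 change of 0.41 ± 0.14 that missed the test.

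In complex IV, 3 of 11 genes were lower in mRNA after LPS (5 with median-of-ratios scaling) and none was higher. Cox7b, a small membrane subunit, had the largest of these changes. Its mRNA stood at 258 and 282 CPM in basal cells, 141 and 149 CPM with LPS, and 120 and 166 CPM with LPS + DEX. The basal libraries lay above the other 4, and the fall with LPS was 0.89 ± 0.17 on the log2 scale (adjusted p = 0.0270). Cox4i1, the regulatory subunit that binds ATP, had 1106 and 1166 CPM in basal cells and 842 and 835 CPM with LPS. It fell by 0.44 ± 0.11 (adjusted p = 0.0433). Cox5a, a matrix-side subunit with 524 and 497 CPM in basal cells and 374 and 314 CPM with LPS, fell by 0.57 ± 0.13 (adjusted p = 0.0357). Each paralogue group of this complex was represented by its broadly expressed form, and Cox6a1 (277 and 283 CPM basal, 321 and 333 CPM with LPS), Cox6b1 (336 and 425, then 324 and 289 CPM) and Cox8a (210 and 268, then 193 and 228 CPM) did not pass. Cox7a2 (180 and 258, then 151 and 184 CPM) did not pass either, nor did Cox7a2l (132 and 157, then 148 and 155 CPM), whose product links complexes III and IV. Cox5b had 507 and 535 CPM in basal cells and 390 and 377 CPM with LPS, without overlap, and also missed the test.

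Complex V held 6 of the lower genes (10 with median-of-ratios scaling) and the higher one. Atp5j, the coupling factor 6 of the peripheral stalk, stood at 291 and 351 CPM in basal mRNA, 184 and 130 CPM with LPS, and 110 and 160 CPM with LPS + DEX. Both basal values were above the other 4. Its fall with LPS, 1.04 ± 0.23 on the log2 scale (adjusted p = 0.0351), was the largest of the 39. Atpif1, which blocks ATP hydrolysis when the proton gradient collapses, stood at 409 and 429 CPM in basal cells, 218 and 204 CPM with LPS, and 187 and 205 CPM with LPS + DEX. It fell by 0.99 ± 0.12 (adjusted p = 0.0184), and its replicates lay close together in each group. The subunit e gene Atp5k, needed for ATP synthase dimers, fell by 0.82 ± 0.14 (adjusted p = 0.0227), from 332 and 363 CPM to 183 and 212 CPM. Atp5e of the F1 head, Atp5j2 of the membrane part and the pseudogene Atp5l-ps1 also fell, by 0.67, 0.61 and 0.79. Reads of the pseudogene may be shared with its parent Atp5l, which did not pass, since how shared reads were counted is not given in the sources used here.

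Atp5a1, the alpha subunit of the catalytic head, went the other way. It stood at 1017 and 1045 CPM in basal mRNA, 1368 and 1424 CPM with LPS, and 1592 and 1464 CPM with LPS + DEX, so the basal libraries were the lowest. The log2 change with LPS was 0.44 ± 0.10 (adjusted p = 0.0397), and 0.17 (adjusted p = 0.359) with median-of-ratios scaling, where the call was lost. With 1 mRNA library left out the change ran from 0.41 to 0.47, and the call was lost in each of these fits. These mRNA calls rest on both LPS libraries: without mRNA LPS replicate 1, and likewise without replicate 2, all of them were lost. Nearly all calls over all genes tested were lost there too. Without either LPS + DEX library most of the 13 were lost, and calls over all genes also fell. None of the 13 changed sign in any of those fits. Without the mRNA library of basal replicate 1, the median log2 change with LPS of the nuclear genes followed here was -0.47. The calls of Atp5a1, Cox4i1, Cox5a and Atp5l-ps1 were lost in that fit, with no change of sign, and calls over all genes tested also fell.

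**Figure D2:**
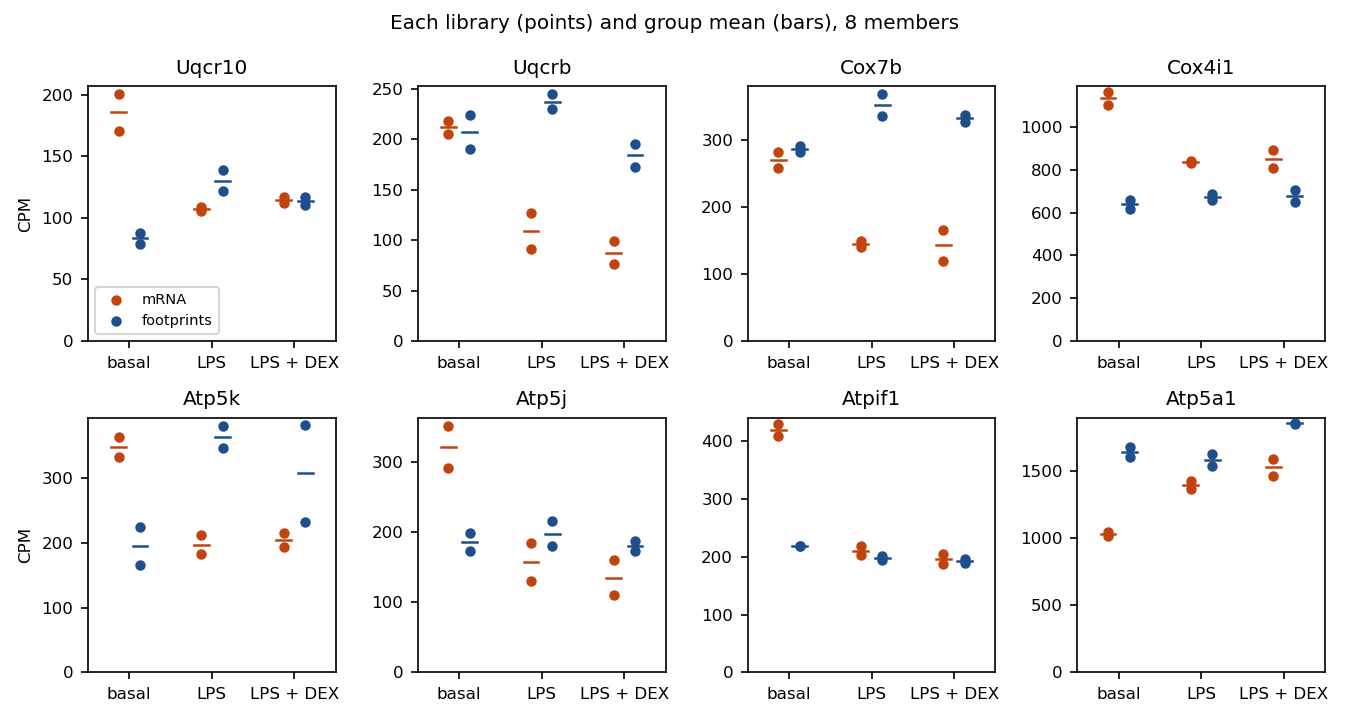
CPM of 8 genes in each library (points) with the group mean of 2 libraries (bars), for mRNA (orange) and footprints (blue). The basal mRNA points lie above the LPS and LPS + DEX ones in every panel except Atp5a1, where they lie below, and the footprints of Atp5k and Uqcr10 are lowest in basal cells.

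Footprints of the same 39 genes moved in both directions after LPS and in smaller numbers. Of the 39, 4 were higher (3.3% of all 8847 genes tested were called higher) and 3 were lower (4.32%). The median was -0.05, against -0.07 over all genes. Under median-of-ratios scaling 6 were higher and 2 lower, where 378 and 279 of all 8847 genes were called. Footprint libraries of basal and LPS cells did not overlap for 14 higher and 11 lower genes (20.5% and 29.9% of all genes). The change in footprints was smaller in size than that in mRNA for 27 of the 39 genes, a count not taken over all genes. It was taken on values scaled to depth only, for which the median over all genes was 0.26 in mRNA and -0.07 in footprints. Whether it sets these genes apart was not tested. None of the 12 genes with less mRNA passed as lower in footprints: 2 of them were higher in footprints and 10 did not pass. With 4.32% of all genes called lower in footprints, none among 12 is near that share.

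Those 2 genes were Atp5k and Uqcr10. Footprints of Atp5k stood at 225 and 166 CPM in basal cells, 347 and 381 CPM with LPS, and 383 and 233 CPM with LPS + DEX. The basal libraries were the lowest, although LPS + DEX replicate 2 lay near them. The log2 change with LPS was 0.91 ± 0.19 (adjusted p = 0.00927). Footprints of Uqcr10 stood at 87.8 and 78.9 CPM in basal cells, 139 and 122 CPM with LPS, and 117 and 110 CPM with LPS + DEX. The change with LPS was 0.64 ± 0.14 (adjusted p = 0.0117), opposite in sign to that of its mRNA.

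Atp5f1, the b subunit of the peripheral stalk, had 622 and 619 CPM of footprints in basal cells, 793 and 779 CPM with LPS, and 582 and 584 CPM with LPS + DEX. Its footprints rose by 0.34 ± 0.08 on the log2 scale with LPS (adjusted p = 0.0209). Atp5mpl, a small proteolipid of the membrane part, had 71.0 and 74.3 CPM in basal cells, 97.7 and 114 CPM with LPS, and 65.9 and 67.1 CPM with LPS + DEX. It rose by 0.54 ± 0.15 (adjusted p = 0.0421). For both genes the LPS libraries stood above the other 4 footprint libraries.

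The 3 genes with fewer footprints after LPS were Atp5g1, Atp5c1 and Cyc1. Atp5c1, the gamma subunit that forms the rotating shaft, had 714 and 700 CPM in basal cells, 523 and 511 CPM with LPS, and 422 and 460 CPM with LPS + DEX. It fell by 0.45 ± 0.09 on the log2 scale with LPS (adjusted p = 0.0063), and the 3 groups did not overlap. Cyc1, the cytochrome c1 of complex III, had 353 and 377 CPM in basal cells, 289 and 275 CPM with LPS, and 238 and 274 CPM with LPS + DEX. Its fall of 0.37 ± 0.11 (adjusted p = 0.0466) missed the threshold with median-of-ratios scaling (adjusted p = 0.0903). The mRNA of Atp5c1 (531 and 608 CPM basal, 576 and 484 CPM with LPS) and Cyc1 (422 and 383, then 401 and 427 CPM) overlapped between groups. Without footprint LPS replicate 1 only the calls of Atp5c1 and Atp5k were kept, and without replicate 2 only those of Atp5g1 and Uqcr10. Calls over all genes tested fell in both of these fits too.

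The third gene, Atp5g1, is 1 of 3 nuclear genes that encode the same mature subunit c, the protein of the rotor ring, with different import sequences. Atp5g1 footprints stood at 356 and 381 CPM in basal cells, 188 and 249 CPM with LPS, and 238 and 296 CPM with LPS + DEX. They fell by 0.76 ± 0.14 on the log2 scale with LPS (adjusted p = 0.00376), while Atp5g1 mRNA stayed between 297 and 348 CPM in all 6 libraries. Atp5g3 footprints were 603 and 570 CPM in basal cells, 713 and 700 CPM with LPS, and 711 and 670 CPM with LPS + DEX, and Atp5g2 footprints were 140 to 177 CPM throughout. Neither passed in footprints with LPS, except that Atp5g3 was higher with median-of-ratios scaling (0.33, adjusted p = 0.0348, against 0.27 and 0.0699 without it). Summed over the 3 genes, footprints were 1130 and 1128 CPM in basal cells, 1067 and 1110 CPM with LPS, and 1089 and 1132 CPM with LPS + DEX. Atp5g1 held 31.5% and 33.8% of that sum in basal cells, 17.6% and 22.5% with LPS, and 21.9% and 26.2% with LPS + DEX. The shares come from reads, so the 3 genes also differ by the length on which reads can fall, and only the change between treatments is read from them.

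**Figure D3:**
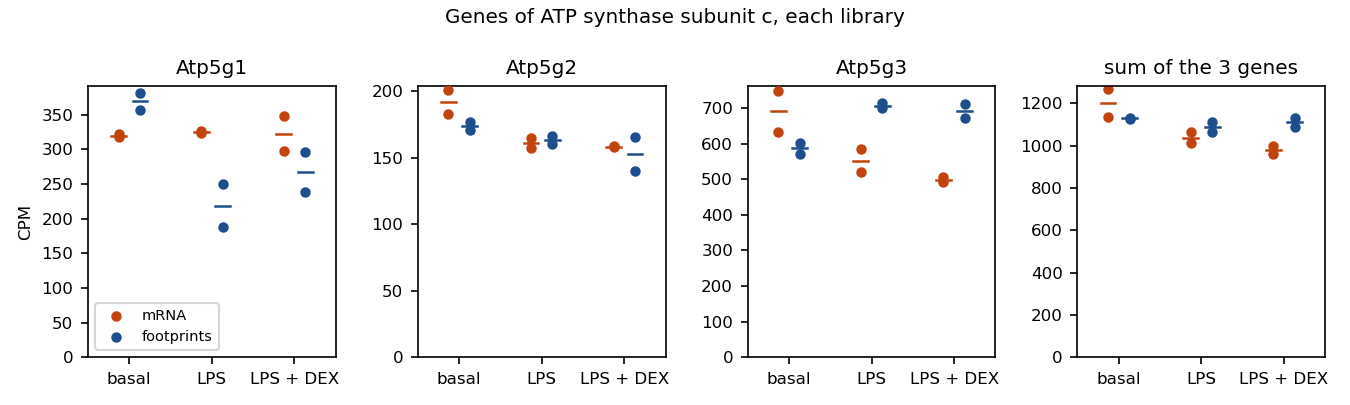
CPM of the 3 subunit c genes and of their sum in each library (points) with group means (bars), for mRNA (orange) and footprints (blue). Footprints of Atp5g1 are lower with LPS (188 and 249 CPM) than in basal cells (356 and 381 CPM), while the footprint sum lies between 1067 and 1132 CPM in all 6 libraries.

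Translational efficiency (TE), the log2 ratio of footprints to mRNA, was tested as an interaction over all 12 libraries. After LPS, TE was higher for 14 of the 39 genes and lower for 3, while 3.08% of all 9412 genes tested were called higher and 13.6% lower. The median change was 0.40, against -0.34 over all genes. With median-of-ratios scaling 21 were higher and none lower, with a median of 0.70, so the 3 lower calls depend on the scaling. With that scaling 558 of all 9412 genes were called higher and 502 lower. By complex, TE was higher for 2 of 9 genes in complex III, 3 of 11 in complex IV and 9 of 19 in complex V. With median-of-ratios scaling these counts were 4, 7 and 10, so the order of the complexes depends on the scaling.

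The largest TE changes with LPS belonged to genes described above: Atp5k (1.72 ± 0.29, adjusted p = 0.00277), Uqcr10 (1.42 ± 0.20, adjusted p = 0.00142), Cox7b (1.19 ± 0.20, adjusted p = 0.00306) and Uqcrb (1.17 ± 0.24, adjusted p = 0.00782). These 4 calls were kept in each of the 12 fits that left out 1 library. For Cox7b the footprints were 283 and 291 CPM in basal cells and 336 and 369 CPM with LPS, and for Uqcrb 224 and 191 CPM and then 230 and 245 CPM, so for both the LPS libraries were the higher ones although neither passed in footprints. The others that were higher were Atp5j (1.12), Cox6c (1.02), Atpif1 (0.85), Atp5l-ps1 (0.73), Atp5e (0.71), Atp5f1 (0.70), Atp5j2 (0.67), Atp5g3 (0.59), Atp5h (0.52) and Cox4i1 (0.52). In the peripheral stalk, which holds the catalytic head still against the turning rotor, 3 of 4 genes were higher in TE.

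Lower TE with LPS was called for Atp5g1 (-0.79 ± 0.21, adjusted p = 0.0229), Cox6a1 (-0.54 ± 0.16, adjusted p = 0.0359) and Atp5a1 (-0.49 ± 0.12, adjusted p = 0.0131). With median-of-ratios scaling the signs held at -0.49, -0.25 and -0.19, and none of the 3 passed. Atp5a1 footprints stood at 1600 and 1679 CPM in basal cells and 1625 and 1537 CPM with LPS, overlapping, while its mRNA was higher. Without mRNA LPS replicate 2, and likewise without footprint basal replicate 2, many of the TE calls with LPS were lost. Without mRNA basal replicate 1 fewer of them were lost. Calls over all genes tested also fell in each of these fits.

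**Figure D4:**
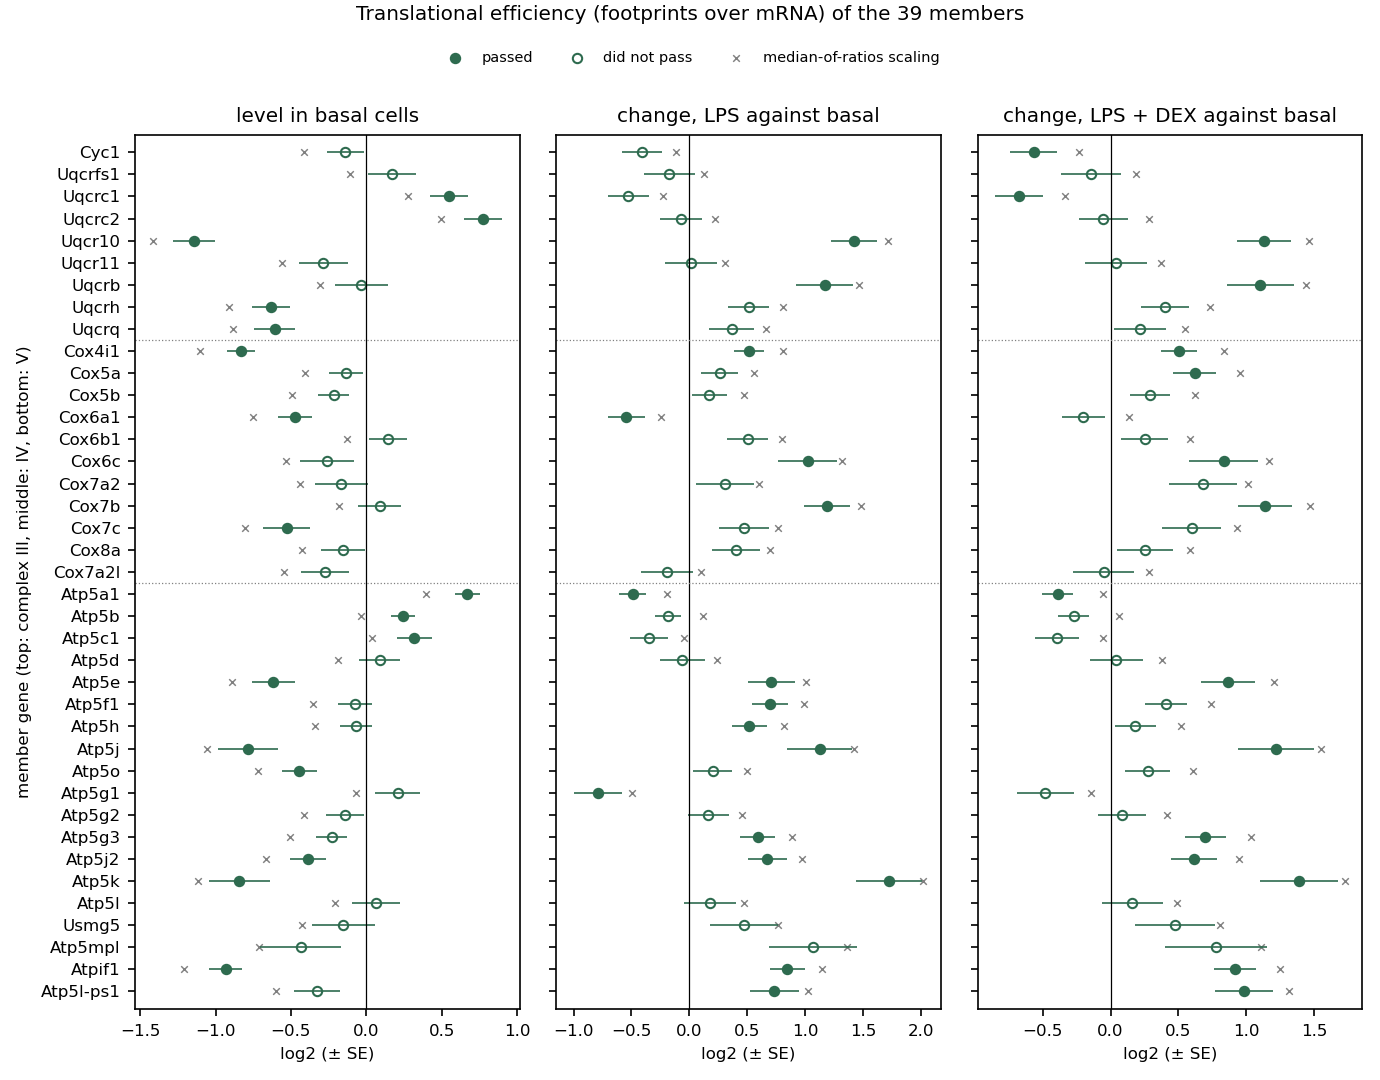
Footprints over mRNA for each of the 39 genes on the log2 scale: the level in basal cells (left) and the change with LPS (middle) and LPS + DEX (right) against basal cells. Points are limma estimates with standard errors over 2 libraries a group, filled where the adjusted p was under 0.05, and crosses show median-of-ratios scaling. Atp5k and Uqcr10 lie below 0 in basal cells (-0.84 and -1.14) and furthest to the right after LPS (1.72 and 1.42), and the crosses lie to the left of the points in the first panel and to the right in the others.

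In basal cells the TE level was above 0 for 5 of the 39 genes and below 0 for 12, where 33.4% of all genes were called higher and 17.3% lower. The median was -0.17, against 0.21 over all genes. With median-of-ratios scaling 2 were higher and 26 lower, where 2361 and 2367 of all 9412 genes were called. The level of 0 is where footprint and mRNA values of a gene are equal, and it is set by the scaling. Neither value was corrected for the length on which its reads can fall. Levels of different genes may therefore also differ by that length, which was not tested.

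The 5 higher ones were Uqcrc2, Atp5a1, Uqcrc1, Atp5c1 and Atp5b, while Atp5e of the same F1 head was lower (-0.62). Uqcrc2, a core protein of complex III, had 392 and 424 CPM of footprints beside 214 and 266 CPM of mRNA, a level of 0.77 ± 0.13 (adjusted p = 0.00025). Atp5a1 had a level of 0.67 ± 0.08 (adjusted p = 1.94e-05) and Uqcrc1 of 0.55 ± 0.13 (adjusted p = 0.00273). Atp5c1 followed at 0.32, and Atp5b, the catalytic beta subunit, at 0.24, which became -0.03 with median-of-ratios scaling. With that scaling only Uqcrc2 and Atp5a1 of the 5 passed. Without mRNA basal replicate 1, the basal calls of Atp5b and Atp5c1 were lost, and calls over all genes tested also fell.

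Lower TE levels in basal cells were found for Uqcr10 (-1.14 ± 0.14, adjusted p = 2.01e-05), Atpif1 (-0.93 ± 0.11, adjusted p = 1.4e-05), Atp5k (-0.84 ± 0.20, adjusted p = 0.00369) and Cox4i1 (-0.83 ± 0.09, adjusted p = 9.36e-06). Cox4i1 had 658 and 619 CPM of footprints beside 1106 and 1166 CPM of mRNA, and Atpif1 had 219 and 219 CPM beside 409 and 429 CPM. Atp5j, Uqcrh, Atp5e, Uqcrq, Cox7c, Cox6a1, Atp5o and Atp5j2 were also lower, from -0.78 to -0.39. The level in basal cells and the changes from basal cells share the basal libraries, so a low basal level and a rise after LPS are not independent values.

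DEX added to LPS for the same 30 min was not accompanied by a detected mRNA change. In mRNA, 0 of the 39 genes passed against LPS alone (limma), 0 reached an unadjusted p of 0.05, and limma-voom also called 0. Over all 9277 genes 0% were called. The groups did not overlap for 12 lower and 2 higher genes (13.2% and 18.2% of all genes). The largest changes, both of which missed the test, were those of Cox7c (176 and 152 CPM with LPS, then 115 and 133 CPM with DEX added, -0.40 ± 0.17) and Atp5mpl (98.7 and 46.6 CPM, then 49.8 and 54.9 CPM, -0.37 ± 0.33). For Atp5mpl the value rests on mRNA LPS replicate 1, without which it was 0.16.

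Footprints fell for 4 of the 39 genes with LPS + DEX against LPS and rose for none, while 3.55% of all genes were called lower and 3.14% higher. The median was -0.09, against 0.02 over all genes. The groups did not overlap for 17 lower and 6 higher genes (24.2% and 26.9% of all genes). Atp5mpl fell by 0.66 ± 0.15 on the log2 scale (adjusted p = 0.0157) and Atp5f1 by 0.43 ± 0.08 (adjusted p = 0.00557), both of them genes whose footprints had been highest in the LPS libraries. Atp5h, the d subunit of the peripheral stalk, had 317 and 353 CPM with LPS and 253 and 251 CPM with LPS + DEX. It fell by 0.41 ± 0.10 (adjusted p = 0.0264). Cox6b1, which sits at the dimer interface of complex IV, had 504 and 457 CPM with LPS and 373 and 377 CPM with LPS + DEX, and fell by 0.36 ± 0.10 (adjusted p = 0.0391). Each of the 4 calls was lost without either LPS + DEX library, and also without 1 or both of the LPS libraries. With 1 library left out, log2 changes ran from -0.77 to -0.55 for Atp5mpl and from -0.44 to -0.42 for Atp5f1. Those of Atp5h ran from -0.48 to -0.33 and those of Cox6b1 from -0.43 to -0.29. The comparisons of LPS with basal cells and of LPS + DEX with LPS share the LPS libraries.

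TE did not pass for any of the 39 genes between LPS + DEX and LPS (limma), where 2 had an unadjusted p under 0.05, limma-voom also called 0, and 0.0106% and 0.0425% of all genes were called higher and lower. The largest changes, which missed the test, were 0.37 ± 0.25 for Cox7a2 and 0.36 ± 0.16 for Cox5a.

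Against basal cells, LPS + DEX gave lower mRNA for 18 of the 39 genes and higher mRNA for 2, where 4.23% and 18.5% of all genes were called. The median was -0.46, against 0.28 over all genes, and median-of-ratios scaling gave 27 lower and none higher. With that scaling 826 of all 9277 genes were called lower and 720 higher. Libraries of the groups did not overlap for 28 lower and 3 higher genes (16.6% and 47.5% of all genes). Uqcrb (-1.28 ± 0.20, adjusted p = 0.00934), Atp5j (-1.26 ± 0.23, adjusted p = 0.0122) and Atpif1 (-1.09 ± 0.12, adjusted p = 0.0058) had the largest falls. Next came Usmg5, a small subunit of the membrane part of complex V, with 87.5 and 122 CPM in basal cells and 47.4 and 54.5 CPM with LPS + DEX (-1.01 ± 0.23, adjusted p = 0.0206). The smallest falls that passed were those of Atp5h, with 317 and 324 CPM in basal cells and 226 and 240 CPM with LPS + DEX (-0.46 ± 0.12), and of Cox4i1, with 896 and 809 CPM under LPS + DEX (-0.42 ± 0.11). Since this comparison shares its basal libraries with that of LPS alone, the 2 are not independent. By role, 3 of 5 small subunits of complex III, 5 of 10 subunits of complex IV, 3 of 4 of the peripheral stalk and 3 of 5 small membrane subunits of complex V were lower. With median-of-ratios scaling these counts were 4, 8, 4 and 5. The 2 higher ones were Uqcrc1 (0.50 ± 0.14, adjusted p = 0.0438) and Atp5a1 (0.57 ± 0.10, adjusted p = 0.0119), and neither passed with median-of-ratios scaling (0.21 and 0.27). Without mRNA LPS + DEX replicate 1 none of the mRNA calls of these genes was kept, and nearly all calls over all genes were lost too. Without replicate 2 a part of them was lost, as over all genes. Leaving out basal replicate 1 lost the calls of Atp5h, Cox4i1, Cox5b and Uqcrc1.

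Only Atp5c1 and Cyc1 passed in footprints between LPS + DEX and basal cells, both lower, where 2.86% of all genes were called lower and 1.77% higher. Without overlap between groups, 21 genes were lower and 7 higher (29.7% and 20.8% of all genes). Atp5c1 fell by 0.68 ± 0.09 on the log2 scale (adjusted p = 0.000334), a call kept without each of the 6 footprint libraries in turn, and Cyc1 fell by 0.51 ± 0.11 (adjusted p = 0.0114). The footprint change was smaller in size than the mRNA change for 30 of the 39 genes, a count again not taken over all genes. TE against basal cells was higher for 13 genes and lower for 3 (2.68% and 12.2% of all genes), or 21 and 0 with median-of-ratios scaling. With that scaling 507 of all 9412 genes were called higher and 356 lower. Atp5k (1.39 ± 0.29), Atp5j (1.22 ± 0.28), Cox7b (1.14 ± 0.20) and Uqcr10 (1.13 ± 0.20) had the largest rises. The 3 lower ones, Uqcrc1 (-0.67), Cyc1 (-0.57) and Atp5a1 (-0.39), did not pass with the other scaling. Without footprint LPS + DEX replicate 1 most of these TE calls were lost, and calls over all genes tested also fell.

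Summed over the 39 genes, mRNA was 14553 and 16144 CPM in basal cells, 13625 and 13161 CPM with LPS, and 13400 and 12732 CPM with LPS + DEX. The basal mRNA libraries lay above the other 4. Summed footprints were 14487 and 14572 CPM in basal cells, 14586 and 14550 CPM with LPS, and 13991 and 14004 CPM with LPS + DEX. The basal and LPS sums thus overlapped in footprints, and those with LPS + DEX were the lowest.

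The mitochondrially encoded subunits of the same complexes are cytochrome b, 3 subunits of complex IV and 2 of complex V. Their summed footprints were 3142 and 2870 CPM in basal cells, 6471 and 7028 CPM with LPS, and 1567 and 1372 CPM with LPS + DEX, with no overlap between the 3 groups. Of these 6 genes, 5 were higher in footprints with LPS against basal cells (median 1.17) and all 6 were lower with LPS + DEX against LPS (median -2.24). The nuclear genes had medians of -0.05 and -0.09 in the same 2 comparisons. Cycloheximide acts on cytosolic and not on mitochondrial ribosomes, so footprints of the 2 genomes were not held in the same way, and the difference between the genomes was not tested. Their median log2 change in mRNA was -0.39 with LPS against basal cells (nuclear genes -0.37), -0.68 with LPS + DEX against LPS (nuclear -0.07) and -1.07 with LPS + DEX against basal cells (nuclear -0.46). In the last of these, 3 of the 6 were called lower, or 5 with median-of-ratios scaling. Their summed mRNA was 45982 and 57859 CPM in basal cells, 46909 and 31702 CPM with LPS, and 17477 and 33146 CPM with LPS + DEX, so the groups with LPS and with LPS + DEX overlapped.

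**Figure D5:**
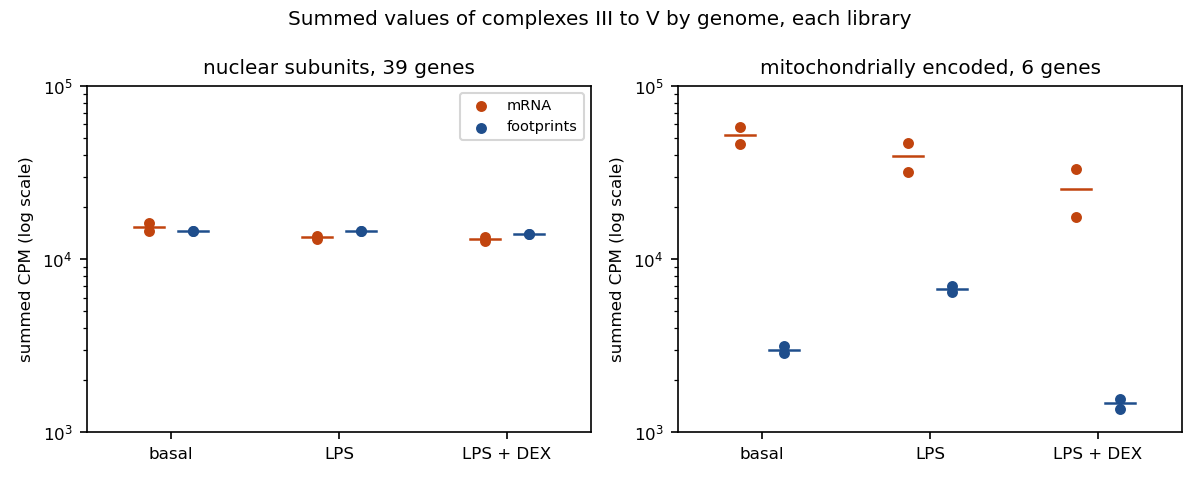
Summed CPM of the 39 nuclear genes (left) and the 6 mitochondrially encoded genes (right) of complexes III to V in each library (points) with group means (bars), on a log axis, for mRNA (orange) and footprints (blue). Nuclear footprints lie between 13991 and 14586 CPM in all 6 libraries, while mitochondrial footprints run from 1372 CPM with LPS + DEX to 7028 CPM with LPS.

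Nuclear subunits of complex I, which feeds electrons from NADH into the chain, were tested in the same fits. The shares of all genes called lower and higher were 1.68% and 9.03% in mRNA with LPS, and 4.23% and 18.5% in mRNA with LPS + DEX against basal cells. Of 36 listed complex I genes, 5 were lower and none was higher in mRNA with LPS (median -0.38), and 16 were lower and 1 was higher with LPS + DEX against basal cells. With median-of-ratios scaling these became 15 lower and none higher (median -0.64), and 23 lower and none higher. Over all 9277 genes, that scaling called 317 lower and 184 higher with LPS, and 826 lower and 720 higher with LPS + DEX. In footprints with LPS, 2 were higher and 5 lower with either scaling. Over all genes, 3.3% were called higher and 4.32% lower without median-of-ratios scaling, and 378 and 279 of 8847 with it. In TE with LPS, 5 were higher and 3 lower (3.08% and 13.6% of all genes). With median-of-ratios scaling 10 were higher and 1 lower, where 558 and 502 of all 9412 genes were called. Whether the 39 genes differ from these was not tested.

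Of 31 listed assembly factors of complexes III to V, 1 was lower in mRNA with LPS, the copper carrier Cox17 (-0.90, adjusted p = 0.0421), or 5 with median-of-ratios scaling. With LPS + DEX against basal cells 7 were lower, or 10 with that scaling. Without it, 1.68% and 4.23% of all genes were called lower in these mRNA comparisons, and with it 317 and 826 of all 9277 genes. Among the assembly factors only Pet100, which helps assemble complex IV, passed in footprints with LPS (1.08, adjusted p = 0.0221). There, 3.3% of all genes were called higher and 4.32% lower. A further 6 genes of or around the chain were Cycs, Slc25a3, Slc25a4, Slc25a5, Slc25a13 and Ndufa4. Of these, only Ndufa4 passed in mRNA with LPS, where it was lower (-0.74, adjusted p = 0.0241). Ndufa4 and the ADP/ATP exchanger Slc25a4 were lower in footprints, or only Slc25a4 of the 6 with median-of-ratios scaling. In mRNA with LPS, 9.03% of all genes were called higher and 1.68% lower. Of 15 listed regulators of respiratory chain genes, 3 were higher there and 1 was lower. With median-of-ratios scaling 1 was higher and 1 lower, where 184 and 317 of all 9277 genes were called. The higher ones were the coactivators Ppargc1b (1.49, adjusted p = 0.0252) and Pprc1 (0.82, adjusted p = 0.0344) and Cluh (1.02, adjusted p = 0.0416), which binds mRNAs of mitochondrial proteins. With median-of-ratios scaling Ppargc1b kept its call (1.25, adjusted p = 0.0461), while Pprc1 (0.56, adjusted p = 0.117) and Cluh (0.76, adjusted p = 0.112) did not. The lower one was Slirp (-0.93, adjusted p = 0.0270), which stabilises mitochondrial transcripts.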

How the data were processed

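mRNA and footprints of RAW264 cells were measured in 12 libraries, on an Ion PGM per the labels. The values deposited by the authors are CPM plus 1 per Ensembl gene and library, as read from the values: after subtracting 1, 99.99% to 100% of values were whole multiples of 1 read (tolerance 0.1 read). No source used here names the aligner, build or annotation. Symbols matched 9521 of 9621 identifiers. With R 4.3.3 and limma 3.58.1, limma-trend was run on log2(CPM + 1) over the 6 mRNA, the 6 footprint or all 12 libraries. Tested genes had 15 reads in total and, scaled to the median depth, 10 reads in 2 or more libraries. Fold changes on this scale understate changes of low genes. Adjusted p values are two-sided Benjamini-Hochberg values over all genes tested, with a threshold of 0.05. The errors of log2 values are standard errors. The fit was tested on simulated data. The members and lists were chosen with earlier results of these data known. All members that passed are named where 8 or fewer did, otherwise the 4 highest and 4 lowest; others named were chosen after their values were seen. Values per codon could not be given. The precision is limited by the read numbers and by the spread between replicates. No molecular identifiers are described, so counting error from the read numbers is only a lower bound.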

Additional observations from a re-analysis of the deposited data

How the results depend on the processing

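Among the 39 genes, the number that passed was 13 in mRNA with LPS, 20 in mRNA with LPS + DEX against basal cells, 17 and 16 in the TE changes of those comparisons and 17 in the basal TE level. It was 7 in footprints with LPS, 4 with LPS + DEX against LPS and 2 with LPS + DEX against basal cells. Median-of-ratios scaling gave 28 for the basal TE level. Without a filter on low values, 3, 2 and 1 passed in the 3 footprint comparisons, in that order. Limma-voom on whole reads, chosen after seeing the data, gave 4 in footprints with LPS + DEX against basal cells. With the replicate number as a block, 4 passed in mRNA with LPS and 4 in footprints with LPS + DEX against basal cells. The numbers share nothing but a digit in the labels, and same-numbered deviations correlated between -0.224 and 0.144. Leaving out 1 library at a time gave 0 to 11 in mRNA with LPS, 0 to 21 in mRNA with LPS + DEX against basal cells and 0 to 0 in mRNA with LPS + DEX against LPS. In footprints it gave 2 to 8 with LPS, 0 to 6 with LPS + DEX against LPS and 1 to 5 with LPS + DEX against basal cells. In TE it gave 8 to 18 with LPS, 0 to 0 with LPS + DEX against LPS, 5 to 17 with LPS + DEX against basal cells and 12 to 18 for the basal level. With 2 libraries a group, the lone library left is assumed to vary like the others. For single genes named by the rule, 57 results had 783 alternative values: 599 kept direction and side of the threshold, 183 lost the call and 1, Atp5mpl in mRNA with LPS + DEX against LPS, changed sign to 0.16. The causes were not tested. Fits that leave out a library also hold fewer samples, and calls over all genes tested fell in most of them as well. A planned count test on the reads was not run, because the deposited values carry an added 1. The depth of 821946 to 2529666 reads gave each of the 39 genes at least 51 reads in a library.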
